A study of Mus musculus with 66 samples.

Results

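Cultured mouse neurons in which Kdm6b was lowered by a short hairpin RNA (shRNA) were compared with neurons given a nontargeting shRNA. The comparison rested on 5 libraries labelled Kdm6b shRNA (female replicates 1 to 3 and male replicates 2 and 3) and 6 nontargeting libraries, of 66 libraries in all. A further library, labelled Kdm6b shRNA male replicate 1, was left out because its levels of Kdm6b and Setd5 went against its label. All groups were wildtype neurons from mouse embryos at e16.5, cultured by sex, and the labels name no strain. Every shRNA arrived by lentivirus, which was removed on culture day 6, with lysis on day 10. The other groups used here were cultures without virus (6 libraries) and cultures given an shRNA against Ash1l, Chd8, Dnmt3a, Kmt2c, Mbd5, Med13l, Setd5 or Tbr1 (48 libraries). Virus doses had been chosen in separate measurements to leave about 50% of each target, so these cells model partial depletion. The labels speak of wells infected in triplicate and name no separate litter or culture per replicate, so p-values measure the spread between these samples, which may be technical.

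Kdm6b encodes a JmjC-domain demethylase that takes methyl groups off lysine 27 of histone H3. That methylation is written by Polycomb repressive complex 2 and accompanies gene silencing. In the nervous system the enzyme is known for its part in neuronal differentiation, and KDM6B is among the genes in which damaging variants accompany neurodevelopmental disorders. The series asks whether depletion of different chromatin regulators linked to autism changes shared genes, and whether the changes differ between sexes.

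Kdm6b itself (chromosome 11, 69398508 to 69413675 on the minus strand of GRCm38, protein coding) was lower in the shRNA libraries, but to different degrees. In counts-per-million (CPM), female replicates 1 to 3 stood at 10.7, 21.1 and 36.2, and male replicates 2 and 3 at 17.2 and 17.2. The nontargeting libraries stood at 31.0, 52.3 and 54.4 in females and 55.1, 64.9 and 59.5 in males. The groups overlapped at a single point, since the third female shRNA library lay above the first female nontargeting library. The means were 20.5 ± 9.54 (SD, n = 5) and 52.9 ± 11.6 (SD, n = 6), so the shRNA mean was 38.7% of the nontargeting mean. Cultures without virus ranged from 45.4 to 60.2. The libraries compared were chosen by their measured levels of Kdm6b and Setd5, so the values of these 2 genes are a description and carry no test. Medians under the other shRNAs ran from 40.0 with Ash1l shRNA to 66.8 with Kmt2c shRNA, all above the Kdm6b shRNA median of 17.2.

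Setd5, the target of another shRNA, showed why the first male library was left out. In the 5 libraries kept it ranged from 120 to 166 CPM, against 97.3 to 155 in the nontargeting libraries. In the library left out, Setd5 was at 44.9 and Kdm6b at 39.9 CPM, above the highest Kdm6b value kept (36.2). In the male library numbered 1 of the Setd5 shRNA, Setd5 was at 141 and Kdm6b at 23.1 CPM. The other 2 male Setd5 shRNA libraries had 42.9 and 42.7 CPM of Setd5. Each of these male libraries was thus low in the gene named on the label of the other. Neither was relabelled, and both were left out of every main comparison.

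**Figure D1:**
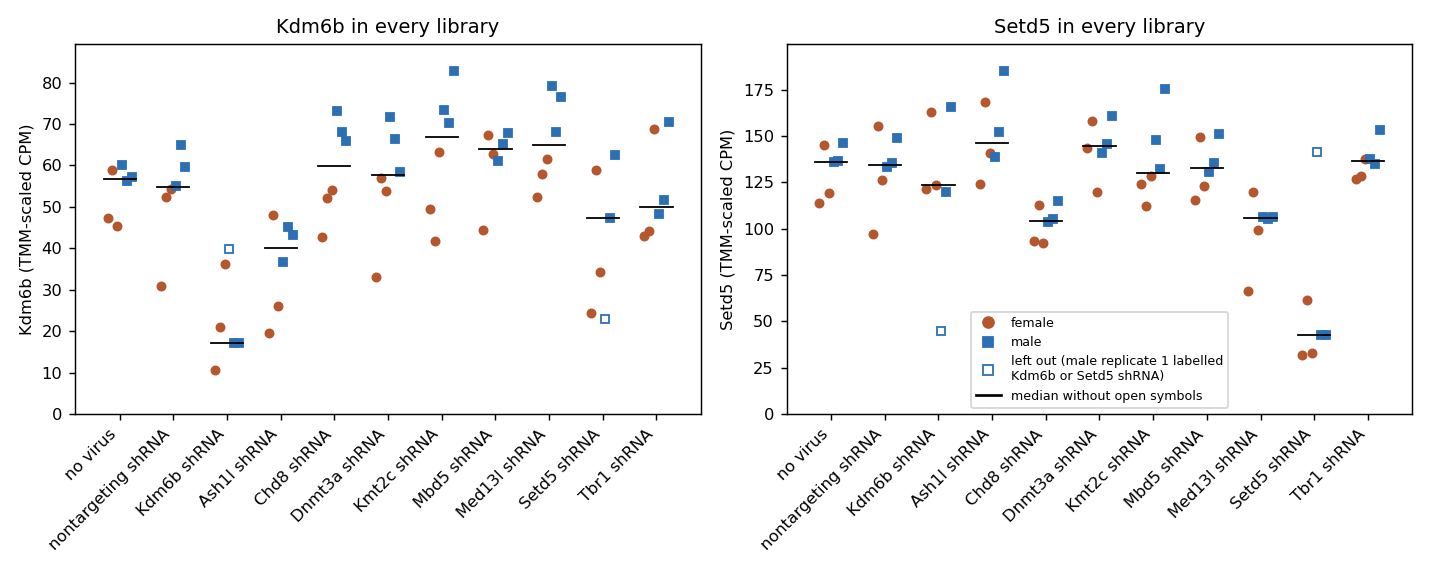
Kdm6b and Setd5 in every library by treatment, in CPM, with circles for female and squares for male libraries, lines for medians and open squares for the libraries left out. The 5 Kdm6b shRNA libraries sit between 10.7 and 36.2 CPM of Kdm6b, and the open squares lie at 39.9 CPM under Kdm6b shRNA and 23.1 CPM under Setd5 shRNA.

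The 11 libraries held between 24936881 and 55616813 counts. The cells carried neuronal markers at high levels (summed CPM of 10 pan-neuronal markers from 8032 to 9409 in shRNA and from 7984 to 9066 in nontargeting libraries). Markers of GABAergic neurons and of astrocytes were also present. Of 10 microglial markers 2 had enough counts to be tested, and the summed CPM of the whole list was 2.06 to 2.78 against 1.001 to 2.95. In bulk samples, fewer cells of a type and less RNA per cell cannot be told apart.

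No gene passed the test between Kdm6b and nontargeting shRNA over the 11 libraries. Of 14522 genes tested with edgeR's quasi-likelihood test, 0 (0%) had a Benjamini-Hochberg adjusted p under the threshold of 0.05, and the smallest adjusted p was 0.0820, shared by 15 genes. With no adjustment, 1582 genes (10.9%) had a p under 0.05, of which 645 were higher and 937 lower with the shRNA. The count of calls differed between alternatives. It was largest, at 513, with the replicate number within sex as a block, and was 0 with a number shared by the sexes as a block. DESeq2 called 279 genes on the same libraries (1.92%; 77 or 0.530% higher, 202 or 1.39% lower). The edgeR fit with all other libraries in the model called 208 of 16452 (1.26%; 52 or 0.316% higher, 156 or 0.948% lower). Without Kdm6b shRNA female replicate 3, the library with the most Kdm6b left, 174 genes of 14593 passed (1.19%; 35 or 0.240% higher, 139 or 0.953% lower), and without nontargeting female replicate 2, 22 passed. Leaving out Kdm6b and Setd5, whose levels chose the libraries and which carry no test, DESeq2, the fit with all libraries and the fit without that Kdm6b library called 278, 207 and 173 genes. Genes called by all of DESeq2, the fit with all libraries and the fit without that Kdm6b library numbered 99, with 25 higher and 74 lower. Each fit tested at least 14522 genes. The fits reuse the same Kdm6b and nontargeting libraries, the last leaving out that Kdm6b library, and several other alternatives called 0. Their overlap is therefore a description and no independent support. Cultures with nontargeting shRNA and without virus gave the background: 0 of 14669 genes passed there, 0 with DESeq2, and 103 (0.702%) had an unadjusted p under 0.05.

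A simpler count asked in how many genes every shRNA library lay on the same side of every nontargeting library. This held for 127 genes that were higher (0.875% of those tested) and 114 that were lower (0.785%), 241 in all (1.66%). The rule for named genes took the 6 genes with the smallest p in each direction, given here as values that did not pass. In all 12 the libraries did not overlap. In 300 of 300 values under other settings these 12 had the same direction, and in 68 of them they passed the threshold. The other settings reuse libraries that chose these genes and set them apart. A shared direction was therefore nearly fixed in advance and is no independent support.

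Among genes with higher values, Nat8l encodes the neuronal enzyme that makes N-acetylaspartate (chromosome 5, 33995984 to 34005916). It stood at 131, 157 and 105 CPM in female and 163 and 163 in male shRNA libraries, against 72.2, 100.3 and 85.7 in female and 100.6, 90.6 and 92.1 in male nontargeting libraries. Its lowest shRNA library was female replicate 3, little above the highest control. The log2 difference was 0.69 (SE 0.116, adjusted p = 0.0820). Cultures without virus reached 133 CPM, so Nat8l overlapped with that second control. Its medians with the other shRNAs ran from 88.4 CPM with Dnmt3a to 142 with Ash1l shRNA, against 157 with Kdm6b and 91.4 with nontargeting shRNA.

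Snap29 encodes a SNARE protein of membrane fusion, including the fusion of autophagosomes with lysosomes (chromosome 16, 17405986 to 17430827). Female shRNA libraries had 91.5, 81.5 and 78.7 CPM and male ones 91.6 and 72.7, while nontargeting libraries had 55.1, 62.7 and 59.7 in females and 62.5, 54.5 and 51.2 in males. Here female replicate 3 was not the lowest, since the third male library was. The log2 difference was 0.53 (SE 0.0911, adjusted p = 0.0820). A culture without virus had 87.8 CPM, inside the shRNA range. Medians of Snap29 with the other shRNAs ran from 46.1 CPM with Mbd5 to 96.2 with Med13l shRNA. Those with Ash1l (83.8) and Setd5 shRNA (86.9) were also above the 81.5 with Kdm6b shRNA.

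Pttg1ip (chromosome 10, 77581720 to 77598732) encodes a protein that binds the securin PTTG1, and Eaf1 (chromosome 14, 31494399 to 31509858) a partner of the ELL elongation factors. Pttg1ip ranged from 33.4 to 41.2 CPM with the shRNA and from 25.3 to 29.8 with the nontargeting shRNA, a log2 difference of 0.49 (SE 0.0860). Eaf1 ranged from 25.4 to 32.0 against 17.9 to 23.1 CPM, a log2 difference of 0.49 (SE 0.0932). Plekha8 (chromosome 6, 54595111 to 54645839), which encodes a glycolipid transfer protein of the Golgi, ranged from 23.8 to 28.1 against 14.8 to 21.5 CPM, a log2 difference of 0.52 (SE 0.09995). Among the other shRNAs the highest medians were 39.7 CPM for Pttg1ip (Setd5), 27.6 for Eaf1 (Chd8) and 24.0 for Plekha8 (Tbr1). Kdm6b shRNA medians were 39.2, 30.0 and 27.1 CPM. For these 3 genes all 6 cultures without virus lay below all 5 shRNA libraries. The same was true of Pde7a (chromosome 3, 19223108 to 19311322, minus strand), a phosphodiesterase that degrades cyclic AMP, at 66.7, 73.5, 61.5, 71.9 and 68.2 CPM against 45.8 to 56.2 (log2 difference 0.42, SE 0.0811, adjusted p = 0.105).

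Among genes with lower values, Syt2 encodes a synaptotagmin that acts as a fast calcium sensor of transmitter release (chromosome 1, 134646677 to 134762593). It was a low gene, at 0.830, 1.27 and 2.04 CPM in female and 1.07 and 0.987 in male shRNA libraries. Nontargeting libraries had 3.19, 3.56 and 3.21 CPM in females and 3.78, 3.94 and 5.23 in males. Its log2 difference of -1.59 (SE 0.252, adjusted p = 0.0820) was the greatest in size of the 12. The order of its 5 shRNA libraries was that of Kdm6b itself, lowest in female replicate 1 and highest in female replicate 3. That order was shared by 527 of 14520 genes (3.63%), and the reverse order by 335 (2.31%). The order of Kdm6b turns in part on male replicates 2 and 3, which were nearly equal in Kdm6b (17.22 and 17.15 CPM). Whether Syt2 follows the level of Kdm6b was not tested. Medians of Syt2 with the other shRNAs ran from 2.15 CPM with Ash1l to 6.17 with Mbd5 shRNA, against 1.07 with Kdm6b and 3.67 with nontargeting shRNA. Ash1l shRNA libraries, at 0.847 to 3.36 CPM, overlapped with those of Kdm6b shRNA.

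Med16 encodes a subunit of the Mediator coactivator complex (chromosome 10, 79894708 to 79908923, minus strand). Its 5 shRNA libraries had 21.9, 22.2, 28.6, 24.5 and 24.3 CPM, in the order female 1 to 3 and male 2 and 3, against 42.3, 32.2, 45.6, 38.2, 43.5 and 41.1 in the nontargeting libraries, in the order female 1 to 3 and male 1 to 3. The lowest control was female replicate 2, which still lay above every shRNA library. The log2 difference was -0.73 (SE 0.109), with the smallest unadjusted p of all named genes at 2.13e-05 (adjusted p = 0.0820). Cultures without virus ranged from 32.0 to 42.5 CPM. Medians of Med16 with the other shRNAs ran from 32.3 CPM with Setd5 to 64.1 with Chd8 shRNA, against 24.3 with Kdm6b and 41.7 with nontargeting shRNA. The lowest Setd5 shRNA library, at 20.9 CPM, lay below every Kdm6b shRNA library.

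Pkig (chromosome 2, 163658386 to 163726158) encodes an inhibitor of the cyclic AMP-dependent protein kinase, and stood at 17.0 to 25.6 CPM against 27.2 to 50.8, a log2 difference of -1.03 (SE 0.159). Nalf1, an auxiliary subunit of the sodium leak channel NALCN, had 25.5, 29.2, 39.0, 24.7 and 26.4 CPM against 44.1 to 50.3 (log2 difference -0.69, SE 0.106). The third female library was again nearest to the controls. Tlnrd1 (chromosome 7, 83879873 to 83884305, minus strand), a talin rod domain protein, ranged from 10.5 to 16.53 against 18.7 to 31.4 CPM (log2 difference -0.86, SE 0.137). Megf11 (chromosome 9, 64385626 to 64709205), a transmembrane protein known for the spacing of retinal neurons, ranged from 14.7 to 22.7 against 24.1 to 34.9 CPM (log2 difference -0.74, SE 0.121). These 4 genes had adjusted p-values of 0.0820. Among the other shRNAs the lowest medians were 38.7 CPM for Pkig and 31.2 for Nalf1 (Setd5), 20.1 for Tlnrd1 (Ash1l) and 19.9 for Megf11 (Chd8). Kdm6b shRNA medians were 19.9, 26.4, 13.7 and 17.4 CPM. Of the 12 genes, 11 were nearest to the controls in female replicate 3, the library with the most Kdm6b. The share of all genes tested for which this held was not counted, and a relation to the level of Kdm6b was not tested. Against cultures without virus no gene passed either (0 of 14741; smallest adjusted p 0.0551, for Pkig among others; 1517 genes, 10.3%, had an unadjusted p under 0.05, and DESeq2 called 201), and both comparisons share the Kdm6b shRNA libraries. The log2 differences from no virus were -1.04 for Pkig, -0.70 for Med16, -1.36 for Syt2 and 0.38 for Nat8l.

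**Figure D2:**
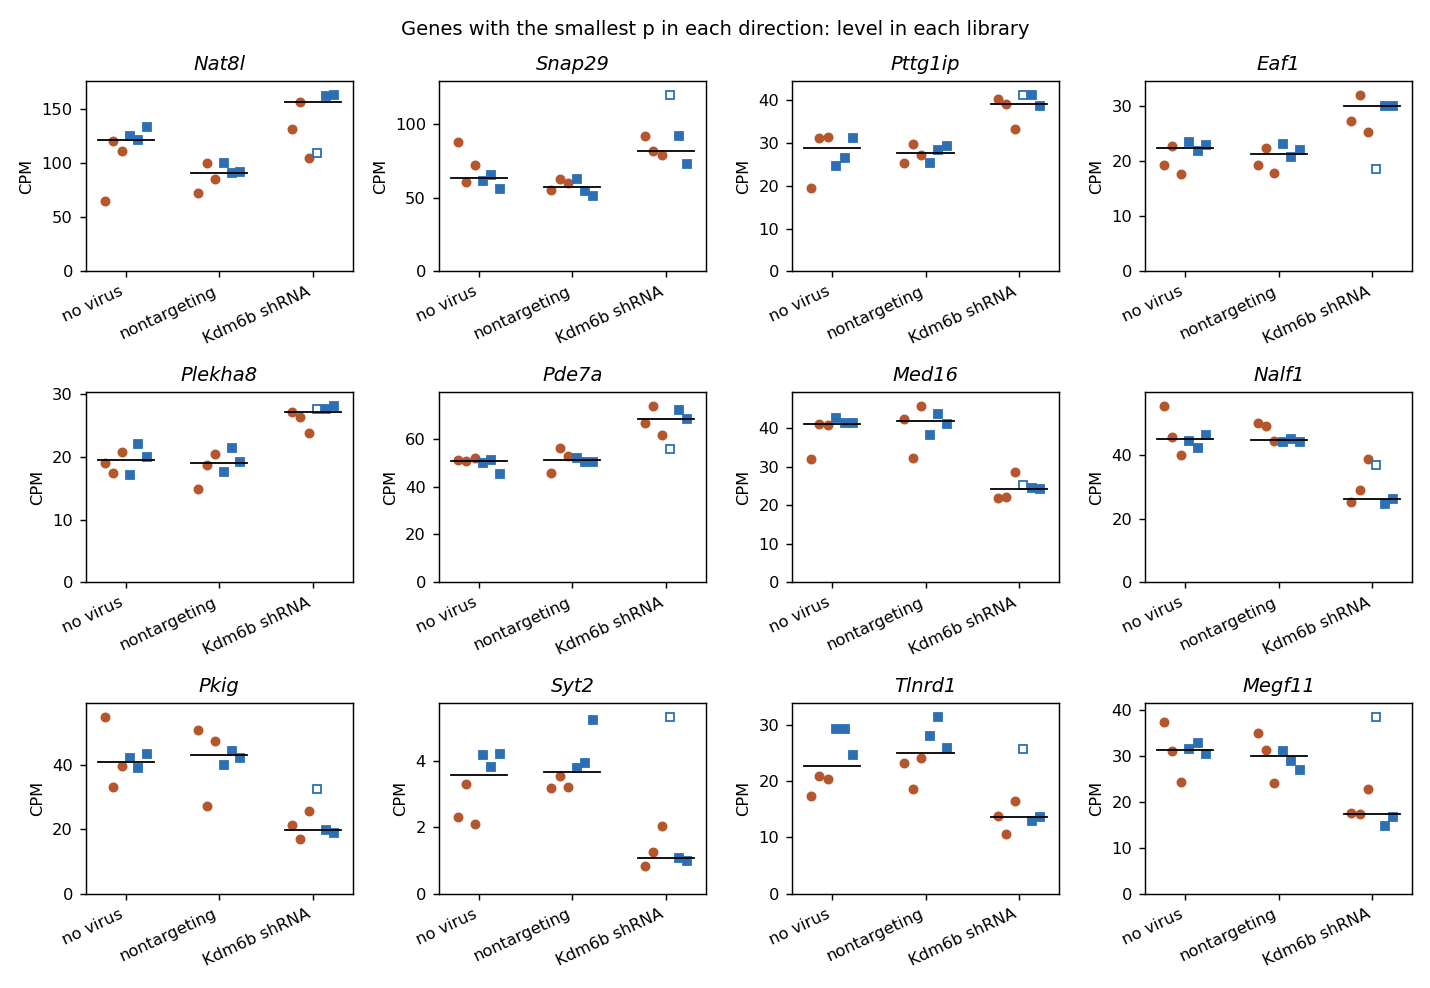
Levels in CPM of the 12 genes with the smallest p, 6 higher and 6 lower, in cultures without virus, with nontargeting shRNA and with Kdm6b shRNA; circles are female and squares male libraries, lines are medians without the open square, which is the library left out. In all 12 panels the 5 filled Kdm6b shRNA points are apart from the 6 nontargeting points, and in the Syt2 panel they lie between 0.830 and 2.04 CPM.

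The promoters of these genes were read from RefSeq (GRCm38.p6), because methylation of lysine 27 is known to gather at promoters rich in CG dinucleotides. Of the 12 genes 8 matched. In windows of 300 bases, from 250 before to 50 after the annotated start, the letters CG (which read the same on both strands) occurred 33 times for Snap29, 20 for Pttg1ip, 19 for Eaf1 and 20 for Plekha8, and 8 times for Med16, 23 for Pkig, 34 for Syt2 and 31 for Tlnrd1. The median was 21 over promoters of 11378 genes tested and 7 over all 27025 promoters. At least as many CG as for Syt2 occurred in 7.47% of all promoters, as for Snap29 in 8.27% and as for Med16 in 49.0%. Higher and lower genes thus both held windows above and below the median of genes tested. The 250 bases before the start of Syt2 and of Snap29, the richest in CG of each direction, are shown with each CG in capitals; they lie on the plus strand at chr1:134646362-134646611 and chr16:17405750-17405999 and hold 30 and 26 CG.
Syt2: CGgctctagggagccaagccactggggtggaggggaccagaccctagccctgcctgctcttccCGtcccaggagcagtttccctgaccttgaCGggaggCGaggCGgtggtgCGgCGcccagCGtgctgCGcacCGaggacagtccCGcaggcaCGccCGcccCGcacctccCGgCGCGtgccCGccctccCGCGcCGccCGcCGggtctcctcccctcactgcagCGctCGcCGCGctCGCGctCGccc
Snap29: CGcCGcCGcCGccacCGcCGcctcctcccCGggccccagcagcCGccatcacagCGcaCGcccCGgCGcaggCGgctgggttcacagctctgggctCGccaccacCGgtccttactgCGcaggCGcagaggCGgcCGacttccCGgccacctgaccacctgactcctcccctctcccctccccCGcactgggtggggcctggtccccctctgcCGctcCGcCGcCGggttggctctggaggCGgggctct

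The 99 genes called in all 3 alternative fits held further genes of known function, named here after their values were seen. On the lower side, Sfrp2, an antagonist of Wnt signalling, differed by -1.16 (SE 0.221), Wnt5a, a Wnt ligand, by -1.04 (SE 0.207), and Ccn4, known as a Wnt-induced secreted protein, by -1.40 (SE 0.304) on the log2 scale. Cxcl14, a chemokine, differed by -1.27 (SE 0.215) and the transcription factor Ets1 by -1.22 (SE 0.245). The autophagy genes Ulk1 (the kinase that starts it) and Gabarapl2 (an ATG8 family member), differed by -0.59 (SE 0.148) and -0.63 (SE 0.146). On the higher side stood Prkx, a protein kinase, at 0.72 (SE 0.159), the SNARE gene Vamp3 at 0.54 (SE 0.124), the long noncoding RNA Norad at 0.59 (SE 0.147) and the proteasome subunit genes Psmc2 and Psmd11 at 0.36 (SE 0.0721) and 0.38 (SE 0.0794). Over the 11 libraries with edgeR's quasi-likelihood test none of these passed, with adjusted p-values from 0.0820 to 0.189.

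The effect was also set side by side in the sexes. The interaction of shRNA and sex, male minus female, called 0 of 14522 genes (0%), and 49 (0.337%) had an unadjusted p under 0.05. With 2 male shRNA libraries this test had little material. Syt2 differed by -1.25 in females and -2.06 in males, Faap100 by -0.96 and -1.64, and Pkig by -0.97 and -1.12, each with an adjusted p of 1 for the difference. The 2 male libraries had 17.2 CPM of Kdm6b each, while the female ones spread from 10.7 to 36.2. Males alone gave 82 calls (8 higher, 74 lower) and females alone 0.

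Libraries that had no part in choosing the 241 non-overlapping genes were then placed against them, by the number of these genes that lay outside the nontargeting range on the side of the Kdm6b shRNA libraries. Cultures without virus had 27 to 89 such genes (median 50.5, 6 libraries). Libraries of the other shRNAs had 33 to 137 (median 91, 47 libraries), with female Setd5 shRNA libraries at 134, 117 and 137. The male library numbered 1 under the Kdm6b label had 137. On the opposite side of the nontargeting range lay 9 to 72 genes without virus, 21 to 92 with the other shRNAs and 51 in that male library. With 212 of 241, and 0 on the opposite side, the library labelled Setd5 shRNA male replicate 1 lay above every other library placed. Of the 12 named genes, it lay within the range of the 5 Kdm6b shRNA libraries in 8 and within that of the nontargeting libraries in 0. Its counterpart under the Kdm6b label lay in the first range in 4 and in the second in 4. Syt2, for example, was at 5.31 CPM in that counterpart and at 1.48 in the one labelled Setd5 shRNA. These counts are descriptions of single libraries with no test.

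**Figure D3:**
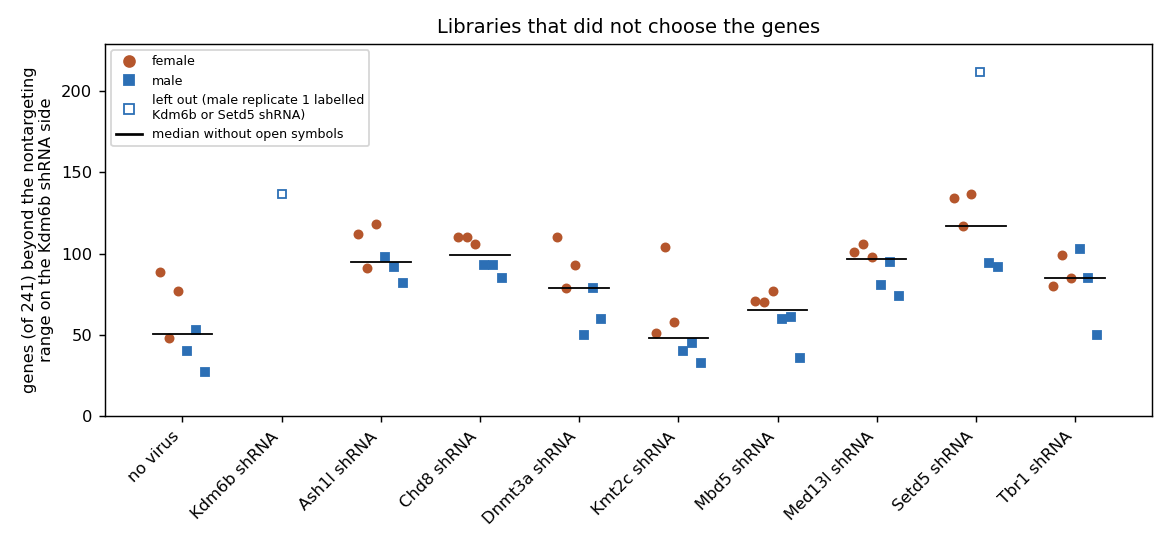
Number of the 241 non-overlapping genes that lie beyond the nontargeting range on the Kdm6b shRNA side, for each library not used to choose them, by treatment label; circles are female, squares male, open squares the 2 libraries left out and lines medians of filled points. The open square under Setd5 shRNA is at 212 and that under Kdm6b shRNA at 137, while cultures without virus lie between 27 and 89.

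Gene lists described the pathway around Kdm6b and the cell types. None of their members passed against nontargeting shRNA, as no gene did, so counts and medians are given beside those of all genes tested, whose median log2 difference was 0.01 with 7515 positive and 7005 negative. A member is said to stand apart where its shRNA and nontargeting libraries did not overlap, which held for 0.875% of all genes as higher and 0.785% as lower. Per-library values of a list are medians over its members relative to the nontargeting mean of the same sex.

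The enzymes of lysine 27 methylation showed no member apart from the controls. Of 14 genes in that list 10 were positive, with a median of 0.10. The summed CPM of the list was 636 to 671 with the shRNA and 600 to 620 with nontargeting shRNA. These sums did not overlap, but they carry no test. Kdm6a, the X-linked demethylase of the same family, had 36.8, 29.5 and 36.9 CPM in female and 26.8 and 27.1 in male shRNA libraries, against 32.7, 32.2 and 31.3 in female and 24.7, 24.8 and 23.3 in male nontargeting libraries. It was higher in females than in males in both groups, and its log2 difference was 0.13 (SE 0.0814, adjusted p = 0.605). Ezh2, the methyltransferase of Polycomb repressive complex 2, differed by 0.15 (SE 0.182), and its partners Eed and Suz12 by 0.05 (SE 0.109) and -0.07 (SE 0.0894). The abundant members Rbbp7 and Rbbp4, histone-binding subunits, differed by 0.12 (SE 0.0664) and 0.04 (SE 0.108). The 18 genes of Polycomb repressive complex 1 had a median of 0.02 with 9 positive, and the 18 other JmjC demethylases 0.07 with 10 positive. Among the 9 genes of the complexes around KMT2C and KMT2D, which KDM6A joins, Rbbp5 stood apart at 37.5 to 39.8 CPM against 28.7 to 36.8 (log2 difference 0.26, SE 0.0780, adjusted p = 0.263).

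No developmental transcription factor listed stood apart. The 28 homeobox and patterning genes tested, of 43 listed, had a median of 0.02, with 16 positive and 0 apart, and none of the genes listed from the Hox clusters had the counts to be tested. The 17 cortical layer factors had a median of 0.08 with 14 positive. Pou3f3 and Bcl11b, their most abundant members, differed by 0.02 (SE 0.121) and 0.08 (SE 0.156).

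Activity-induced genes varied widely between libraries. The 20 late activity-induced genes, secreted peptides and others that follow neuronal firing, had per-library medians of -1.34, 0.87 and 0.58 in female replicates 1 to 3 and of 0.07 and -0.36 in male replicates 2 and 3. The 20 immediate early genes followed the same order in females, at -0.63, 0.71 and 0.49. Nontargeting libraries also spread, from -0.64 to 0.66 for the late genes. Over the 5 libraries the medians of the 2 lists were 0.10 and 0.09, with 0 members apart. Among stress genes, the 20 genes of the integrated stress and unfolded protein responses had a median of -0.0025 with per-library values from -0.85 to 0.62, against -0.30 to 0.20 in nontargeting libraries. Inflammatory genes (11 tested) had a median of 0.13, interferon-stimulated genes (10 tested) of -0.16, p53 targets (17 tested) of -0.02 and genes of the TGF-beta and BMP response (19 tested) of -0.035, with 0 members apart. The first female library was thus the lowest of the 5 in the late, the immediate early and the integrated stress lists, and their part in the other differences was not tested.

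Synaptic genes held a few members that stood apart. Of 24 vesicle and release genes 18 were positive, with a median of 0.09, and 2 stood apart as lower. These were Cplx2, a complexin that clamps the release machinery, at 394, 306, 319, 280 and 361 CPM against 411 to 600 (log2 difference -0.51, SE 0.119, adjusted p = 0.167), and Sypl2, a synaptophysin relative, at 0.272 to 0.646 against 0.790 to 1.49 (log2 difference -1.06, SE 0.284, adjusted p = 0.225). The abundant Vamp2 and Syt1 differed by 0.14 (SE 0.137) and -0.04 (SE 0.106). Of 21 glutamate receptor genes 12 were negative, with a median of -0.09, and Grin3a, a modulatory subunit of NMDA receptors, differed by -0.36 (SE 0.0964). The 24 postsynaptic, 12 GABA-A receptor and 19 potassium channel genes had medians of 0.06, 0.01 and -0.02, and the 20 cholesterol synthesis genes of -0.07, with 0 apart. Among 34 axon guidance genes, with a median of 0.06, 2 receptors stood apart as lower. Nrp2, a receptor of class 3 semaphorins, was at 104 to 117 CPM against 138 to 169 (log2 difference -0.47, SE 0.0830, adjusted p = 0.0839). Unc5b, a netrin receptor, was at 6.10, 6.80, 13.01, 6.64 and 7.42 against 13.1 to 19.4 (log2 difference -1.04, SE 0.201, adjusted p = 0.105). Both receptors were among the 99 genes called in all 3 alternative fits, which reuse the libraries of this comparison.

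Several lists of cell type markers had negative medians. Of 12 GABAergic markers 10 were negative, with a median of -0.24, and none stood apart. Their per-library medians were -0.06, -0.46, -0.33, -0.09 and -0.30, in the order female 1 to 3 and male 2 and 3, against -0.22 to 0.46 in nontargeting libraries, and their summed CPM ranged from 2292 to 2758 against 2613 to 3443. Gad2 and Gad1, the enzymes of GABA synthesis, differed by -0.28 (SE 0.122) and -0.04 (SE 0.108). Of 12 astrocyte and radial glia markers 9 were negative, with a median of -0.20, and libraries fell on either side (0.40, -0.63, -0.77, -0.64 and 0.28). Of 10 endothelial, pericyte and fibroblast markers tested 9 were negative (median -0.33; summed CPM 31.0 to 79.5 against 40.6 to 78.9; Cdh5 and Cldn5 lacked the counts to be tested). Of 9 proliferation markers tested 8 were negative, with a median of -0.32. Top2a and Cdk1 stood apart, Top2a at 0.589 to 1.40 CPM against 1.40 to 3.80, and Cdk1 at 0 to 0.361 against 0.410 to 2.83. The proliferation markers summed to 45.6 to 72.5 CPM against 49.3 to 92.3, and the part of such cells in the other differences was not tested. Of 24 cytosolic ribosomal protein genes 23 were positive, with a median of 0.06 and per-library medians from -0.32 to 0.47.

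**Figure D4:**
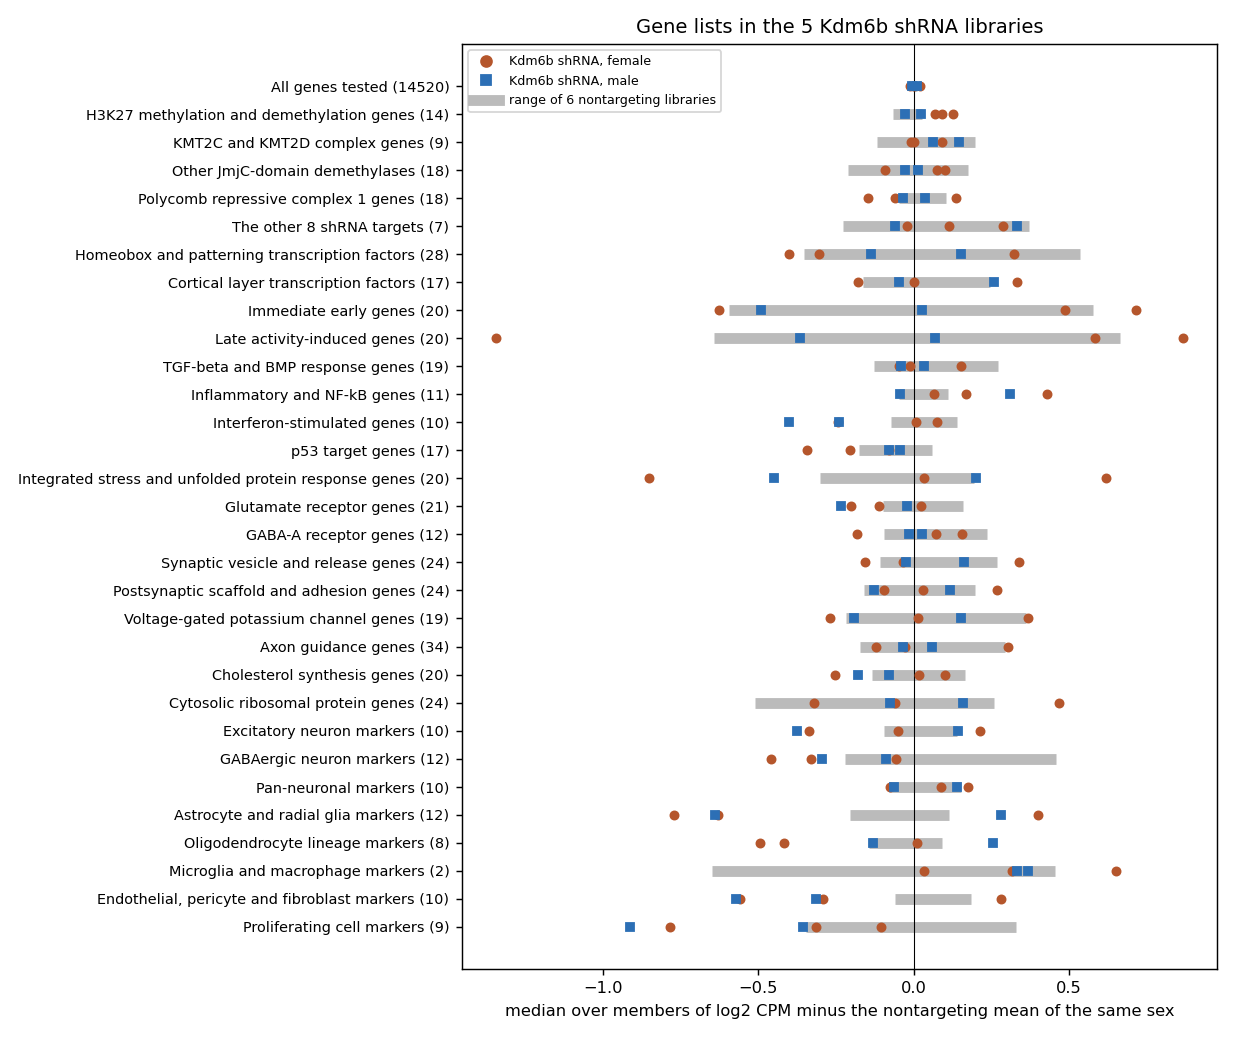
Median over list members of log2 CPM minus the nontargeting mean of the same sex, for each of the 5 Kdm6b shRNA libraries (circles female, squares male), with the range of the 6 nontargeting libraries in grey and the number of members tested in brackets. The late activity-induced genes spread from -1.34 to 0.87 and the medians over all genes lie near 0.

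A further comparison set the 5 libraries against the 8 other shRNAs, which had been given the same way and share no control library with the first comparison. It showed where Kdm6b shRNA libraries differed from shRNA libraries in general. Of 16452 genes tested, 1511 passed (9.18%), 789 higher (4.80%) and 722 lower (4.39%) (adjusted p under 0.05, edgeR). Without Kdm6b and Setd5, 1509 passed. Differences past 1 on the log2 scale were found for 21 higher and 75 lower genes. Without Kdm6b shRNA male replicate 3 the count was 414, without male replicate 2 it was 674 and without female replicate 2 it was 831. A gene can pass here because another shRNA moved it, so levels by target are given for the genes named. Of the 99 genes called in all 3 alternative fits, 94 passed here in the same direction; both comparisons use the same Kdm6b shRNA libraries. The 6 higher and 6 lower genes with the smallest p were named after their values were seen, since no gene had passed in the first comparison.

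Ankrd45, an ankyrin repeat gene (chromosome 1, 161142691 to 161170498), fell by 1.45 on the log2 scale (SE 0.129, adjusted p = 9.1e-11). It stood at 7.72, 17.0 and 30.8 CPM in female and 14.7 and 14.1 in male Kdm6b shRNA libraries, while the 47 libraries of other shRNAs ran from 25.8 to 60.5 with a median of 44.96. Against nontargeting shRNA, at 35.4 to 44.0 CPM, the difference was -1.23 (SE 0.263, adjusted p = 0.142). Faap100, of the Fanconi anaemia DNA repair core complex, fell by 1.43 (SE 0.144, adjusted p = 1.85e-09), with 25.1, 34.9, 64.7, 32.7 and 29.3 CPM against 47.2 to 147 in the other shRNA libraries and 73.8 to 97.9 in nontargeting libraries. Spryd3 fell by 0.79 (SE 0.0780), with 119, 170, 235, 151 and 131 CPM against 205 to 366. In these 3 genes, chosen after their values were seen, the libraries took the order of Kdm6b, as in Syt2. That order turns in part on the near equal Kdm6b of male replicates 2 and 3. In all 12 genes the third female library was nearest to the controls. The genes were chosen from these same libraries, and the share of all genes tested for which this held was not counted. A relation to the level of Kdm6b was not tested.

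Prnp, which encodes the prion protein, fell by 0.95 (SE 0.09995, adjusted p = 5.41e-09). It had 135, 160, 138 and 131 CPM in 4 libraries and 318 in female replicate 3, which lay within the nontargeting range of 269 to 329. Without that library the difference from nontargeting shRNA was -1.05 (adjusted p = 0.000351), and with it -0.80 (adjusted p = 0.167). Chd8 shRNA libraries had the highest Prnp, with a median of 440 CPM. Slc17a7, the vesicular glutamate transporter VGLUT1 and a marker of excitatory neurons, fell by 1.05 (SE 0.111, adjusted p = 5.41e-09), with 61.9, 122, 133, 54.6 and 59.4 CPM against 123 to 178 in nontargeting libraries. Female replicates 2 and 3 lay next to the lowest control. Medians of Slc17a7 were also below the nontargeting 156 CPM with Chd8 shRNA (104) and Tbr1 shRNA (117). The 10 excitatory markers, Slc17a7 included, had a median of -0.0041 against nontargeting shRNA, and Neurod6 and Camk2a differed by 0.11 (SE 0.0891) and 0.03 (SE 0.150). Med16 fell by 0.81 (SE 0.0878, adjusted p = 8.83e-09).

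Among higher genes Pde7a rose by 0.53 (SE 0.0660, adjusted p = 3.45e-07) against the other shRNAs, though its median with Chd8 shRNA (63.7 CPM) was close to that with Kdm6b shRNA (68.2). Peg3, an imprinted zinc finger gene, rose by 0.86 (SE 0.115), at 429, 336, 229, 429 and 399 CPM against 111 to 305 in the other shRNA libraries. The library at 229 lay within the nontargeting range of 168 to 288. Medians of Peg3 ran from 152 with Mbd5 to 281 with Setd5 shRNA, against 274 with nontargeting shRNA. Sgpl1, the lyase that degrades sphingosine 1-phosphate, rose by 0.49 (SE 0.0663), at 48.7 to 61.3 CPM, with Med13l shRNA next at a median of 52.9. Acadsb, an acyl-CoA dehydrogenase of mitochondria, and Ankrd13a, a ubiquitin-binding protein, rose by 0.57 (SE 0.0730) and 0.60 (SE 0.0770). Medians of Acadsb with the other shRNAs ran from 28.0 CPM with Med13l to 97.9 with Ash1l shRNA, against 82.3 with nontargeting shRNA. Those of Ankrd13a ran from 20.9 CPM with Chd8 to 47.6 with Ash1l shRNA, against 36.1 with nontargeting shRNA. Kdm6b shRNA medians were 96.8 and 47.4 CPM, next to those with Ash1l shRNA. Rab2b, a Golgi Rab GTPase, rose by 0.67 (SE 0.0771), and its medians were 3.76 CPM with Med13l shRNA and 6.08 with Kmt2c shRNA against 12.2 with nontargeting and 14.6 with Kdm6b shRNA. Its difference from nontargeting shRNA was 0.23 (SE 0.112).

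List members also passed in this comparison, in which 4.80% of all genes were called higher and 4.39% lower. Rises and falls are relative to the other shRNAs, which may have moved a gene themselves. They are not differences from nontargeting shRNA, against which no gene passed. Among lysine 27 genes Phf1, a Polycomb accessory protein, rose by 0.51 (SE 0.118). Of 18 other JmjC genes 2 rose and 2 fell, namely Jmjd1c (0.29, SE 0.0846) and Kdm5a (0.22, SE 0.0700) and, in the other direction, Kdm7a (-0.43, SE 0.135) and Jmjd6 (-0.41, SE 0.137). Of 18 p53 target genes 3 fell, Ccng1 by 0.61 (SE 0.182), Phlda3 by 0.68 (SE 0.180) and Btg2 by 0.62 (SE 0.168). The guidance receptors Nrp2 and Unc5b fell by 0.49 (SE 0.0934) and 0.94 (SE 0.151), while Unc5d rose by 0.50 (SE 0.132). The replicative helicase gene Mcm2 fell by 0.90 (SE 0.118), and 0 of the 9 other proliferation markers passed. Of 12 GABAergic markers Dlx1 fell by 0.61 (SE 0.200) and the list's median was 0.03, against -0.24 in the first comparison. Of 10 pan-neuronal markers 3 rose, Map2 by 0.37 (SE 0.0769), Elavl3 by 0.32 (SE 0.0976) and Syt1 by 0.46 (SE 0.153). The median of the pan-neuronal list was 0.11, against -0.02 in the first comparison. Of the 7 other shRNA targets tested 5 were higher, and each of these is the target of an shRNA on the other side of the comparison.

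**Figure D5:**
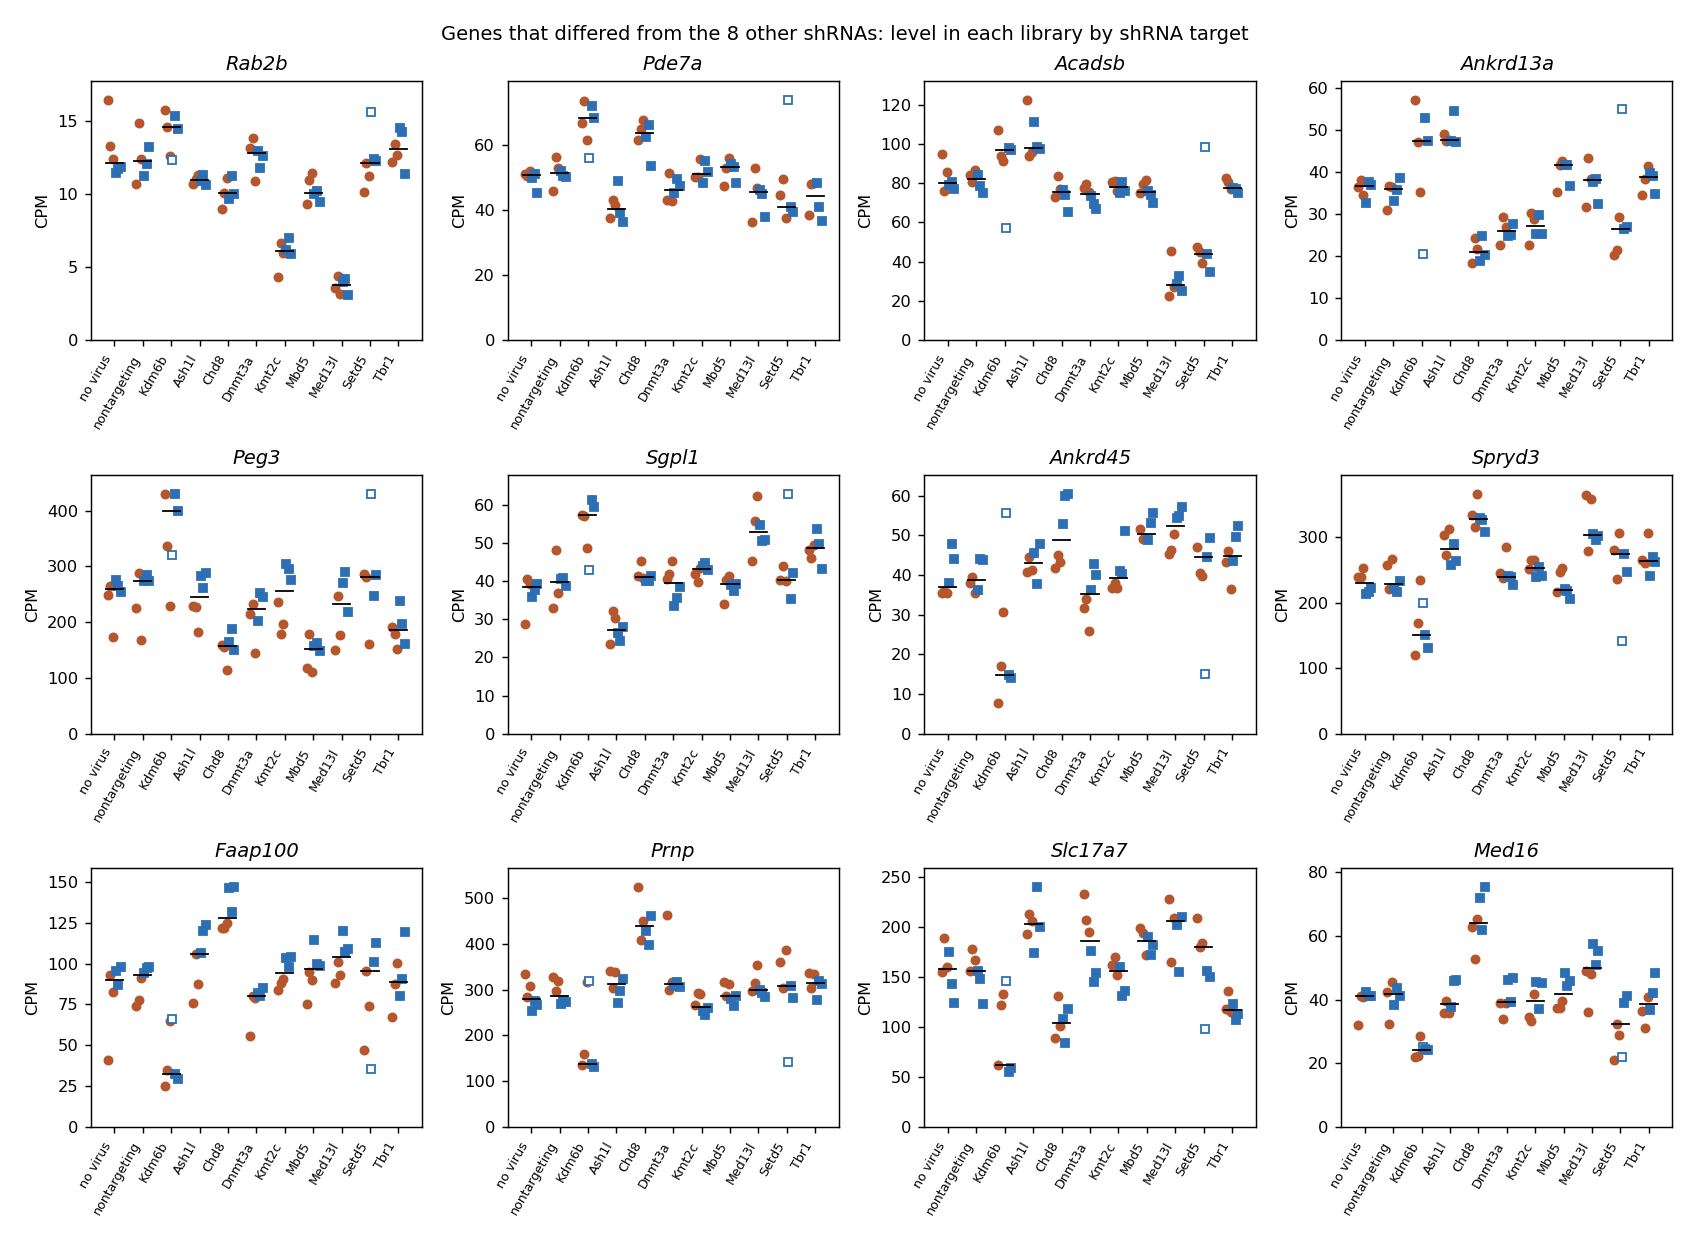
Levels in CPM of the 12 genes with the smallest p against the 8 other shRNAs in every library, by shRNA target and for cultures without virus or with nontargeting shRNA; circles are female, squares male, open squares the 2 libraries left out and lines medians of filled points. In the Ankrd45 panel the Kdm6b shRNA points run from 7.72 to 30.8 CPM around a median of 14.7, and in the Prnp panel 1 Kdm6b shRNA point lies at 318 CPM.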

How the data were processed

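PolyA RNA was sequenced from 66 libraries, and the authors deposited 1 table of raw counts per gene. The submitters' processing notes name STAR, featureCounts and mm10, with roles and versions not given in the sources used here, nor the annotation. In that table the nontargeting group of the labels is named for luciferase. Of 72 library columns, 6 were not used. Rows without a symbol (18483 of 48716, 0.715% to 1.20% of counts in the 11 libraries) were left out and 149 repeated symbols summed, which left 30084 symbols. Of counts from 1 to 20, 27.2% were odd, against 49.5% of counts of at least 1000, so mates of a pair may have been counted separately. Whether strand was used in counting was not given, so overlapping and antisense genes are uncertain.

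Analysis used edgeR 4.0.16 in R 4.3.3. Genes were filtered by filterByExpr, scaled by TMM (factors 0.949 to 1.01) and tested by the robust quasi-likelihood F test with sex as covariate and Benjamini-Hochberg adjustment at 0.05. CPM are relative to TMM-scaled library sizes. SE were derived from the test statistic. For single-library medians log2 CPM had a prior count of 2. The comparison with other shRNAs had 1 mean per group over 64 libraries. Alternatives (scaling, filter, DESeq2 1.42.0, halved counts, libraries left out or added, blocks) have their effect given in the closing section. Libraries of a group differed by more than sampling noise (chi-square per gene at least 14.4), so none was a duplicate. Named genes were the 6 with the smallest p per direction (no gene passed) and the 2 most abundant members of each list, of which only part is printed. Members and lists were chosen with earlier results of these data known. On simulated data for the main comparison (14384 genes, 50 changed per size) 28% of 1.5-fold, 72% of 2-fold, 92% of 3-fold and 98% of 4-fold changes were recovered, with 5 false calls among 14188 genes. For the comparison with other shRNAs (15757 genes) the shares were 58%, 78%, 88% and 92%. The simulated libraries were drawn independently around a single mean per gene, with no effect of sex, replicate number or other shRNAs. The shares may therefore not hold for the real libraries. Counts are of PCR-amplified reads and not independent molecules. Gene positions are from GENCODE M21 (GRCm38).

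Same-numbered libraries of Kdm6b and nontargeting shRNA were checked for pairing by the correlation of their deviations from the group mean. It was 0.60, 0.66 and 0.05 in female replicates 1 to 3, and 0.04 and 0.28 in male replicates 2 and 3. It was thus over 0.1 in 3 of 5 pairs. The sample titles give the number only as a replicate, and the main comparison did not model it. Whether the number marks a shared batch was not tested.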

Additional observations from a re-analysis of the deposited data

Results flagged for a closer look

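Of 42 groups of 4 to 10 libraries examined for Kdm6b, Setd5 and the 12 genes with the smallest p, 4 held a library that stood apart from the rest; chance alone flags about 1 in 20 such groups. Kdm6b in nontargeting female replicate 1 was at 31.0 CPM, while the other 5 nontargeting libraries ran from 52.3 to 64.9. Nat8l in no virus female replicate 1 was at 64.9 CPM, against 111 to 133 in the other 5. Pde7a in no virus male replicate 3 was at 45.2 CPM, against 49.8 to 51.9. Med16 in no virus female replicate 1 was at 32.0 CPM, against 40.7 to 42.5.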

How the results depend on the processing

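Against nontargeting shRNA the count of 0 genes became 9 with no filter on low counts, 279 with DESeq2, 208 with all other libraries in the fit and 82 with male libraries only; leaving out 1 library at a time gave 0 to 174, above 0 without Kdm6b shRNA female replicate 3 (174) or nontargeting female replicate 2 (22). It stayed at 0 with upper quartile scaling, DESeq2 size factors, a filter at 1 CPM in 5 libraries, no robust estimation, halved counts, no sex covariate, females only, and the library labelled Kdm6b shRNA male replicate 1 added. Against no virus the count of 0 became 201 with DESeq2 and 1 with that library added, and 0 to 97 with 1 library left out (97 without Kdm6b shRNA female replicate 3, 1 without no virus female replicate 2). The difference between sexes stayed at 0 in every alternative run, 0 to 0 with 1 library left out. Against the 8 other shRNAs the 1511 calls became 414 to 1594 with 1 Kdm6b library left out (414 without male replicate 3, 674 without male replicate 2, 831 without female replicate 2), and lay between 1272 and 1971 under the other alternatives. The cause of these changes was not tested. With the replicate number within sex as a block, calls were 513 against nontargeting shRNA, 215 against no virus and 3 for nontargeting shRNA against no virus; with a number shared by the sexes as a block they were 0, 3 and 0. The sample titles give the number only as a replicate, while 3 of 5 libraries correlated best with the control of their own number. Whether the number marks a shared batch was not tested. Of 450 list medians under other settings 2 moved by over 1 SD. Genes with few counts, such as Syt2 and Cdk1, have more counting error than abundant ones.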
